A study of Mus musculus with 10 samples.

Results

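The respiratory chain genes described here were all genes whose symbol begins with mt-, Nduf, Uqcr or Atp5, with Cox followed by a digit from 4 to 8, or is Sdha, Sdhb, Sdhc or Sdhd. This rule used names only and found 106 of the 31053 genes in the deposited counts. Of these, 13 lay on the mitochondrial genome and 93 on 19 chromosomes of the nucleus. UMIs (unique molecular identifiers, 1 per captured RNA molecule) were found for 105 of the 106 genes in the 65298 cells, and 7 genes, among them the 1 with none, had fewer than 100.

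The cells came from tumors of E0771, a mouse mammary carcinoma line, grown for 21 days in a mammary fat pad of C57BL/6 mice, females of 16 weeks. EC-AGO1-KO mice (KO) carried floxed AGO1 and a Cre driven by VE-Cadherin, so that the deletion was aimed at endothelial cells alone, and WT mice were their littermates. The injected tumor cells were the same line in both genotypes and did not carry the Cre. Batch 1 held 1 WT and 1 KO library (WT batch 1 and KO batch 1). Batch 2 held 4 WT libraries (WT 1, WT 3, WT 4 and WT 5) and 4 KO libraries (KO 1, KO 2+3, KO 4 and KO 5+6), of which KO 2+3 and KO 5+6 each pooled 2 small tumors. The batches were sequenced on different instruments with different kits, and batch and all that went with it cannot be told apart.

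The respiratory chain transfers electrons from NADH and succinate to oxygen and uses the proton gradient to make ATP. Complex I (NADH dehydrogenase), complex III (cytochrome bc1), complex IV (cytochrome c oxidase) and complex V (ATP synthase) are each built from subunits of both genomes, while complex II (succinate dehydrogenase) is wholly nuclear. The mitochondrial genes are copied as long transcripts from both strands of a small circular genome and cut into single RNAs, some of which carry overlapping reading frames. The nuclear genes are transcribed one by one, and their proteins are imported.

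By complex, the mitochondrial genes gave 7 subunits of complex I, 1 of complex III, 3 of complex IV and 2 of complex V. The nuclear genes gave 36 subunits and 8 assembly factors of complex I, 4 of complex II, 8 of complex III, 20 of complex IV and 17 of complex V. Ndufa4 and Ndufa4l2 were counted with complex IV despite their names.

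Mitochondrial genes overlap in several places, of which mt-Atp6 and mt-Co3, sharing only the base at chrM:8607, are not shown. The 3 others are shown because the ratio of UMIs within these pairs differed between the 2 batches. Each is given from the mm10 (GRCm38) transcripts of GENCODE M21 on the + strand, with the shared bases in capitals and 20 bases on either side. The pair mt-Atp8 and mt-Atp6 shares 43 bases (chrM:7907-7989 shown), mt-Nd4l and mt-Nd4 share 7 (chrM:10147-10193 shown), and mt-Nd5 and mt-Nd6, which lie on opposite strands, share 14 (chrM:13532-13585 shown).
mt-Atp8 and mt-Atp6: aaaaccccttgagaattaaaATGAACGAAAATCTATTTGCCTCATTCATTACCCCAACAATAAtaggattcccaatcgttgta
mt-Nd4l and mt-Nd4: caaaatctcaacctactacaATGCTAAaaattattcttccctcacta
mt-Nd5 and mt-Nd6: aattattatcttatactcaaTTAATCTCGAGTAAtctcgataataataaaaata

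Depth differed between the batches. Libraries held 8323896 to 10591577 UMIs, and the 968 to 10190 cells of a library (barcodes in which 200 to 7000 genes were seen, with mitochondrial UMIs at 10% or less) held 6064580 to 8593422. The median was 4049 and 3862 UMIs per cell in batch 1 and 595 to 1142 in batch 2. Ribosomal protein genes took 19.2% and 17.6% of UMIs in batch 1 and 2.17% to 3.39% in batch 2, while the actin gene Actb took 1.99% and 2.27% in batch 1 and 8.77% to 17.0% in batch 2. Summed myeloid markers were at 3217 and 4121 CPM (UMIs per 1000000 UMIs) in batch 1 and at 43.5 to 113 in batch 2, tumor markers at 8841 and 8520 against 15040 to 18680, endothelial markers at 84.3 and 86.2 against 25.3 to 50.1, and T cell markers at 79.0 and 136 against 30.3 to 193. No more than 28 cell barcodes were shared by any 2 libraries. The part of these values in the results below was not tested. Ago1, the targeted gene, was at 4.32 to 7.06 CPM over all WT cells and 4.45 to 6.92 over all KO cells. None of its UMIs fell in the 63 WT or 118 KO endothelial-like cells of batch 2, which allows up to 68.6 and 52.8 CPM, more than the level in all cells, so the deletion could not be checked.

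Transcripts of both genomes took far more of the RNA in batch 1 than in batch 2, and the nuclear genes differed more than the mitochondrial ones. The 13 mitochondrial genes took 2.91% of all UMIs in WT batch 1 and 2.88% in KO batch 1. In batch 2 they took 0.540%, 0.646%, 0.213% and 0.707% in WT 1, WT 3, WT 4 and WT 5, and 0.469%, 0.652%, 0.687% and 0.547% in KO 1, KO 2+3, KO 4 and KO 5+6. WT 4 was the lowest of all libraries, and no batch 2 library came near batch 1.

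The 93 nuclear genes took 2.05% of UMIs in WT batch 1 and 1.99% in KO batch 1. In batch 2 they took 0.209%, 0.222%, 0.205% and 0.238% in the WT libraries and 0.252%, 0.250%, 0.232% and 0.249% in the KO libraries, in the same order. These 8 values lay close together, and WT 4, which was low for the mitochondrial genes, was the lowest here too but by little. The mean of the nuclear share was 2.02% ± 0.0486 (SD, n = 2) in batch 1 and 0.232% ± 0.0187 (SD, n = 8) in batch 2, against 2.90% ± 0.0246 and 0.558% ± 0.162 for the mitochondrial share.

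The ratio of mitochondrial to nuclear UMIs was 1.42 and 1.45 in batch 1. It was 2.59, 2.91, 1.04 and 2.98 in the batch 2 WT libraries and 1.86, 2.61, 2.97 and 2.19 in the KO libraries. Of the 8 libraries of batch 2, 7 lay above both libraries of batch 1, and WT 4 lay below them. In bulk sums such as these, fewer cells of a type and less RNA per cell cannot be told apart.

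**Figure D1:**
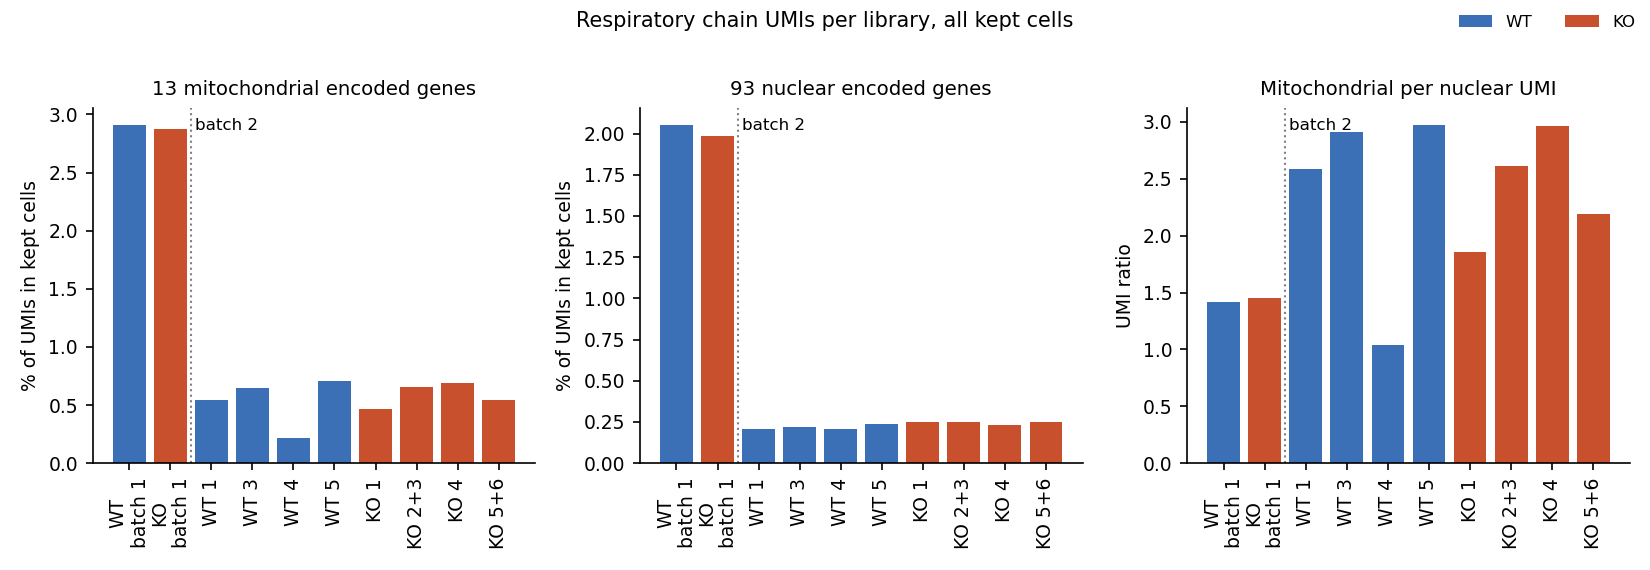
Share of all UMIs in cells taken by the 13 mitochondrial and the 93 nuclear respiratory chain genes in each of the 10 libraries, and the ratio of these sums; bars are single libraries, so no error bar is drawn, and all axes start at 0. Both shares are several times higher in the 2 libraries of batch 1, and WT 4 has the lowest mitochondrial share (0.213%) and the lowest ratio (1.04).

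All 5 complexes followed this division. Nuclear complex I subunits took 0.606% and 0.587% of UMIs in batch 1 and 0.0688% to 0.0817% in batch 2. Nuclear complex V subunits took 0.642% and 0.608% against 0.0508% to 0.0675%, nuclear complex IV subunits 0.559% and 0.550% against 0.0485% to 0.0638%, and complex III subunits 0.195% and 0.187% against 0.0141% to 0.0198%. The smallest steps among nuclear genes were in complex II, at 0.0303% and 0.0302% against 0.00746% to 0.0122%, and in the assembly factors of complex I, at 0.0226% and 0.0225% against 0.0106% to 0.0129%. Among mitochondrial genes, those of complex IV took 1.39% and 1.33% against 0.0715% to 0.250%, the cytochrome b gene of complex III 0.446% and 0.470% against 0.0330% to 0.0594%, those of complex I 0.557% and 0.579% against 0.0586% to 0.209%, and those of complex V 0.519% and 0.5001% against 0.0499% to 0.194%. In no complex did the batches overlap.

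RNA outside cells was also divided by batch, but there the mitochondrial genes differed more than the nuclear ones, unlike in cells. In barcodes with at most 50 UMIs, which are too shallow to be cells and were read as free RNA, the mitochondrial genes took 14.8% and 12.9% of UMIs in batch 1 and 0.635% to 3.26% in batch 2, and the nuclear genes 0.973% and 0.871% against 0.175% to 0.340%. The limit of 10% mitochondrial UMIs removed 40 and 57 barcodes in the batch 1 libraries and 0 to 3 per library in batch 2.

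Gene by gene, the batch comparison asked which members carried the step. UMIs were summed per library over all cells and compared by edgeR's quasi-likelihood test with TMM normalization and Benjamini-Hochberg adjustment, with genotype as a covariate. A gene was called at an adjusted p under 0.05, and log2 differences are batch 1 minus batch 2. Of 12459 genes tested, 76.4% were called, 39.4% higher in batch 1 and 37% lower. Of the 106 members, 97 had enough UMIs to be tested, and 92 of them were higher in batch 1, 2 were lower and 3 were not called. The median log2 difference was 2.57 over the 13 mitochondrial members and 3.30 over the 84 nuclear members tested, against 0.02 over all genes. Among the 99 members with at least 100 UMIs, 94 had both batch 1 libraries above all 8 of batch 2 (40.4% of all such genes did), and 3 had both below (33.3%).

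Of the mitochondrial complex I genes, 6 of 7 were higher in batch 1, with a median log2 difference of 1.83. Of the nuclear complex I subunits 34 of 36 were higher and 1 lower (median 3.70), and of the 7 assembly factors tested 6 were higher (median 0.96). All 4 genes of complex II were higher (median 1.56), as were all 8 nuclear genes of complex III (median 3.71) and all 12 nuclear genes of complex IV that could be tested (median 3.36). Of the 17 nuclear genes of complex V, 16 were higher and 1 lower (median 3.32).

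**Figure D2:**
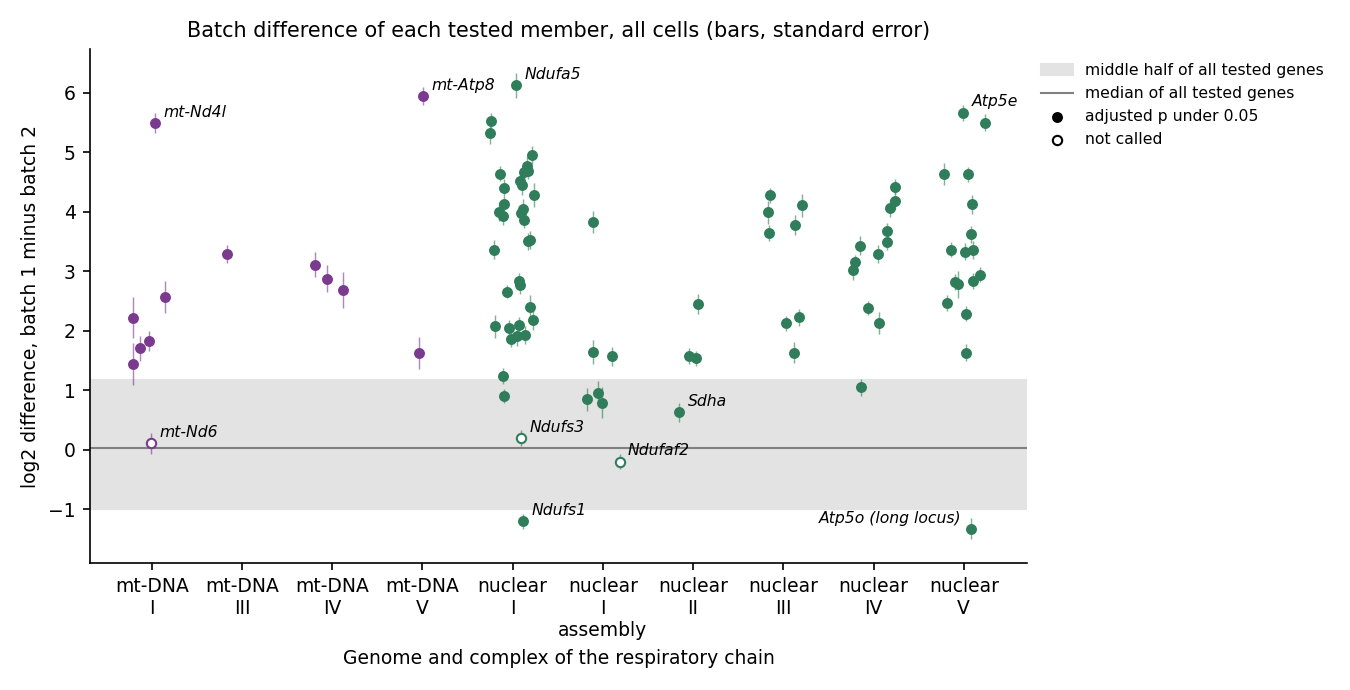
Log2 difference between batches (batch 1 minus batch 2, edgeR, all cells) for each tested respiratory chain gene, by genome and complex, with bars of 1 standard error, open points for genes not called, and a grey band and line for the interquartile range and median of all tested genes. The medians are 2.57 for mitochondrial and 3.30 for nuclear members, and the 2 nuclear members lower in batch 1 are Ndufs1 and the second, longer Atp5o locus.

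Within the mitochondrial genome the step varied over a wide range. At the top stood mt-Atp8, which encodes a small membrane subunit of ATP synthase and was at 398 and 401 CPM in batch 1. It was at 4.45, 6.41, 5.47 and 6.75 CPM in the batch 2 WT libraries and at 6.62, 9.5, 7.26 and 5.72 in the KO libraries, a log2 difference of 5.95 (SE 0.149, edgeR adjusted p = 5.4e-14). The gene mt-Nd4l, for a small complex I subunit, was at 475 and 457 CPM in batch 1 and 6.41 to 14.1 in batch 2, a log2 difference of 5.50 (SE 0.168). Both genes share their RNA with the gene that follows them, and in both the batches lay far apart.

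The genes that follow them moved much less. mt-Atp6, which encodes the proton channel subunit of ATP synthase, was at 4795 and 4599.7 CPM in batch 1 and at 1375, 1812, 493 and 1904 in the batch 2 WT libraries and 1524, 1932, 1722 and 1629 in the KO libraries, a log2 difference of 1.63 (SE 0.274, edgeR adjusted p = 6.1e-05). mt-Nd4, a core subunit of complex I, had the smallest called step of the mitochondrial genes at 1.44 (SE 0.350, edgeR adjusted p = 0.0015). WT 4 was lowest of the 10 libraries for both.

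mt-Nd6, the one member read from the other strand of the circle, was not called. It was at 75.9 and 80.5 CPM in batch 1, at 52.2, 82.5, 67.5 and 76.6 in the batch 2 WT libraries and at 64.7, 88.5, 83.4 and 68.1 in the KO libraries. The batch 1 values lay inside the batch 2 range, and the log2 difference was 0.10 (SE 0.171, edgeR adjusted p = 0.589).

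The other mitochondrial genes lay between these ends. The cytochrome b gene mt-Cytb was at 4458 and 4705 CPM against 330 to 594 (log2 difference 3.29). The complex IV core genes mt-Co2, mt-Co3 and mt-Co1 had differences of 3.11, 2.87 and 2.68. The most abundant member in batch 1 was mt-Co1, at 8017 and 7358 CPM. It was at 1496, 1486, 352 and 1534 in the batch 2 WT libraries and 920, 1373, 1556 and 977 in the KO libraries. On average in batch 2, mt-Atp6 was more abundant, at 1549 CPM against 1212 for mt-Co1. The complex I genes mt-Nd3, mt-Nd1, mt-Nd5 and mt-Nd2 had differences of 2.57, 2.22, 1.83 and 1.70. Per kilobase of gene, mean levels in batch 1 ran from 6898 CPM per kb for mt-Atp6 to 151 for mt-Nd6. In batch 2 they ran from 2275 CPM per kb for mt-Atp6 to 31.97 for mt-Atp8, so the gene at the top was the same and the gene at the bottom was not.

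The ratio of UMIs within the overlapping pairs printed above differed between the batches. For every 100 UMIs of mt-Atp6 there were 8.31 and 8.73 of mt-Atp8 in batch 1 and 0.323 to 1.11 in batch 2. For every 100 of mt-Nd4 there were 29.4 and 27.0 of mt-Nd4l in batch 1 and 1.02 to 5.70 in batch 2. The pair on opposite strands went the other way, with 12.2 and 11.8 UMIs of mt-Nd6 for every 100 of mt-Nd5 in batch 1 and 30.2 to 61.9 in batch 2. WT 4 had the highest value of batch 2 in all 3 pairs, and in no pair did the batches overlap.

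The same division stood in free RNA and in tumor- or mesenchyme-like cells. In barcodes with at most 50 UMIs there were 10.0 and 10.2 UMIs of mt-Atp8 per 100 of mt-Atp6 in batch 1 and 1.11 to 2.97 in batch 2, and 52.6 and 55.9 of mt-Nd4l per 100 of mt-Nd4 against 3.39 to 9.28. In tumor- or mesenchyme-like cells the values were 6.95 and 6.98 against 0.297 to 1.16 for the first pair and 20.2 and 24.8 against 1.04 to 5.72 for the second. In T-like cells the batches overlapped in 2 of the 3 pairs, with 59.7 and 48.3 of mt-Nd4l per 100 of mt-Nd4 in batch 1 against 0 to 100 in batch 2, where the 100 was 2 UMIs of each gene in WT 4, and 15.7 and 13.2 of mt-Nd6 per 100 of mt-Nd5 against 14.3 to 59.4. The assignment of a UMI to 1 of 2 overlapping genes was made by the counting software, and its part in these ratios was not tested.

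**Figure D3:**
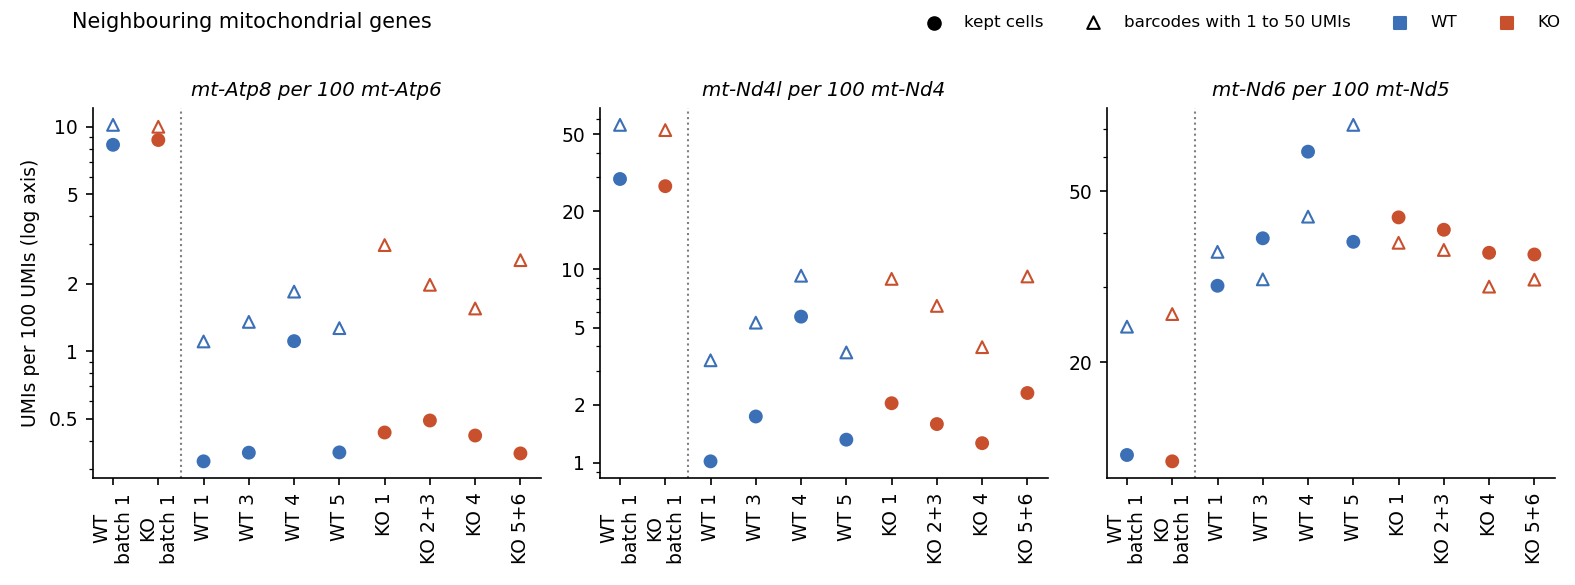
UMIs of the first gene per 100 UMIs of the second for 3 overlapping mitochondrial pairs, on log axes. There is 1 point per library for cells (circles) and for barcodes with at most 50 UMIs (triangles), with batch 2 to the right of the dotted line. Batch 1 lies above batch 2 for mt-Atp8 and mt-Nd4l and below it for mt-Nd6, in both kinds of barcode.

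Among nuclear members the largest steps were in small subunits. Ndufa5, an accessory subunit of complex I, was at 312 and 290 CPM in batch 1 and at 1.70, 4.48, 6.51 and 3.84 in the batch 2 WT libraries and 4.90, 4.99, 4.62 and 3.65 in the KO libraries, a log2 difference of 6.12 (SE 0.216, edgeR adjusted p = 1.2e-12). Atp5e, the epsilon subunit of ATP synthase, was at 909 and 851 CPM against 12.4 to 21.7 (5.67, SE 0.136), and Ndufa3, another accessory subunit of complex I, at 312 and 318 against 5.03 to 8.64 (5.52, SE 0.138). Every batch 2 library of these 3 genes lay more than an order of magnitude below batch 1.

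The most abundant nuclear subunits of each complex were also higher in batch 1, with 1 exception. In complex V, Atp5g2, 1 of the genes for the rotor ring subunit, was at 1273 and 1142 CPM against 36.0 to 59.6 (log2 difference 4.63), and Atp5b, the catalytic beta subunit, at 502 and 471 against 73.5 to 120 (2.29). In complex IV, Cox4i1 was at 763 and 726 CPM against 44.9 to 71.3 (3.68), with log2 differences of 4.07 for Cox8a and 3.16 for Cox7c. In complex III, Uqcrq, Uqcrb and Uqcrh had differences of 4.27, 3.99 and 3.64, and in complex I, Ndufa7 and Ndufb9 had 3.98 and 3.87.

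The exception was Ndufs1, the largest subunit of complex I and one of its iron-sulfur proteins. It was at 69.4 and 70.8 CPM in batch 1, at 168, 153, 140 and 159 in the batch 2 WT libraries and at 171, 168, 174 and 165 in the KO libraries. Both batch 1 values lay below all 8 of batch 2, and the log2 difference was -1.21 (SE 0.123, edgeR adjusted p = 2.9e-07). The other member lower in batch 1 was the second of 2 loci that the annotation names Atp5o (ENSMUSG00000116933), which spans chr16:91684398-91926982 and overlaps the first (ENSMUSG00000022956) at chr16:91925214-91931687. It was at 13.4 and 16.6 CPM against 31.8 to 45.7 (log2 difference -1.33, SE 0.180), while the first locus was at 186 and 188 against 12.9 to 24.3 (3.32). Reads of the shared stretch could come from either locus, so both values are uncertain. Ndufs3 and the assembly factor Ndufaf2 were not called by edgeR, at 0.19 and -0.20, while DESeq2 called Ndufaf2 lower at -0.29 (adjusted p = 0.0414).

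Complex II, which also serves the citric acid cycle, had smaller steps. Sdhb, its iron-sulfur subunit, was at 139 and 136 CPM against 32.3 to 57.9 (log2 difference 1.58), and Sdhc, a membrane anchor, at 58.0 and 59.7 against 16.0 to 24.2 (1.53). Sdha, the flavoprotein that oxidizes succinate, was at 45.8 and 42.6 CPM against 18.9 to 33.0, the smallest step called among the members (0.63, SE 0.161, edgeR adjusted p = 0.0022).

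The size of the step went with the length of the gene on the genome, over members and over all genes. Over 84 nuclear members, Spearman's rho between the genomic span and the log2 batch difference was -0.609, and over 12446 tested genes with a span it was -0.546. The 24 members of up to 5 kb had a median difference of 4.06, the 30 members of 5 to 10 kb 3.42, the 16 of 10 to 20 kb 2.72 and the 14 longer ones 1.22. Over all genes the medians in the same classes were 1.97, 1.29, 0.81 and -0.51. Within each class the members' median lay above that of all genes. For the longest annotated transcript in place of the span, rho was -0.363 over members and -0.348 over all genes. These are correlations across genes within the same 10 libraries, and genes are not independent replicates.

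**Figure D4:**
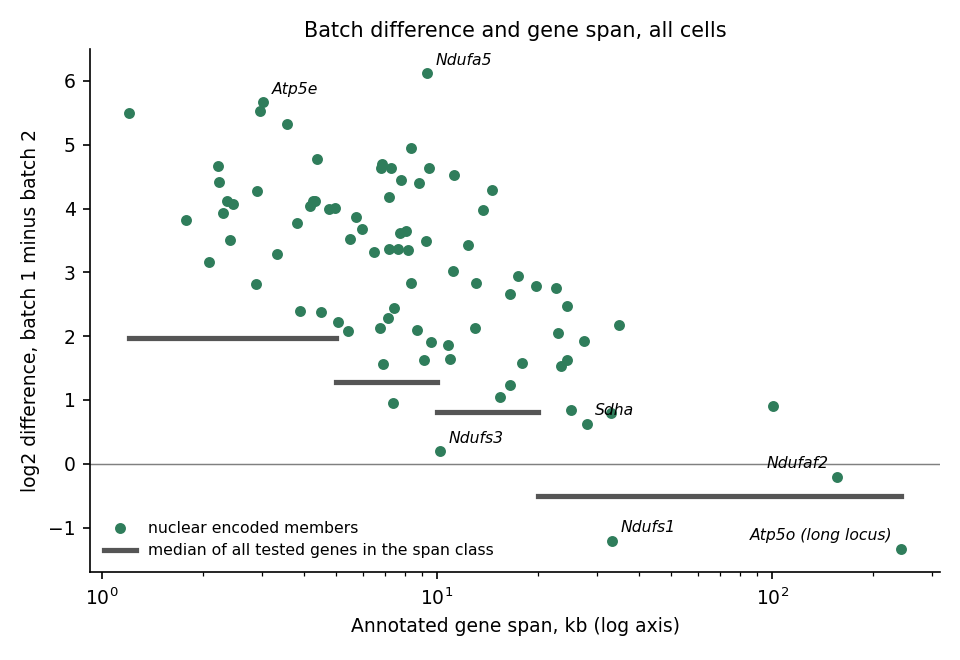
Log2 difference between batches (batch 1 minus batch 2, all cells) against the genomic span in kilobases on a log axis for the 84 nuclear respiratory chain genes tested, 1 point per gene, with bars for the median of all tested genes in each span class (1.97, 1.29, 0.81 and -0.51). Short members have the larger differences, and the 2 members lower in batch 1, Ndufs1 and the longer Atp5o locus, both exceed 20 kb.

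Some of the nuclear members held a promoter motif that the choice by name did not use. NRF1, a transcription factor known for binding promoters of respiratory genes, recognizes a motif of 10 bases, GCGCA, any base, then GCGC. It was searched on both strands in RefSeq promoters (mm10, GRCm38.p6, from 250 bases before to 50 after the start site), which 74 of the nuclear members had. The motif stood in 19 of the 74 (25.7%) and in 1402 of 27025 genes in all (5.19%). The windows below are from 4 of the named members, chosen to span the range of batch differences, on the strand of the gene with the match in capitals, which for Ndufa8 is the reverse complement of the motif. Each window is 30 bases long, at chr6:24527697-24527726, chr15:102671070-102671099, chr2:36049349-36049378 and chr13:74350319-74350348, all on the - strand. Sdha had 3 matches, of which 1 is shown.
Ndufa5: tgtgtgagctGCGCAGGCGCaaatctacct
Atp5g2: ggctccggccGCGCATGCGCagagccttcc
Ndufa8: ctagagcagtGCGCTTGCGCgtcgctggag
Sdha: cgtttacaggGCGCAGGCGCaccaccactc

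These 4 promoters belong to genes with batch differences of 6.12, 4.63, 2.83 and 0.63 on the log2 scale. The median difference was 3.06 over 18 tested members with the motif and 3.36 over the 50 without it. Atp5o, which also held the motif, was left out because 2 tested loci carry its symbol, at 3.32 and -1.33. A match is a description of these letters and does not show binding.

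Cells were clustered within each batch. Clusters of non-tumor classes were named only where listed markers of the class were among their leading genes. Tumor- or mesenchyme-like clusters instead needed 3 listed markers above their level in the immune clusters. The tumor- or mesenchyme-like clusters held the most cells, 950 in batch 1 and 54143 in batch 2. In these the mitochondrial genes took 2.86% of UMIs in batch 1 and 0.553% in batch 2, and the nuclear genes 1.91% and 0.235%. Of 11483 genes tested in them 76.1% were called, 39.2% higher in batch 1, and of 97 members 92 were higher and 2 lower, so the step stood within this class with a median log2 difference of 2.55 for mitochondrial and 3.16 for nuclear members. Among the 7 tumor- or mesenchyme-like clusters of batch 2 the mitochondrial share ran from 0.344% to 0.784% and the nuclear share from 0.220% to 0.353%, and among the 4 of batch 1 from 2.75% to 2.91% and from 1.65% to 2.20%.

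The 620 myeloid-like cells of batch 1 had 3.27% mitochondrial and 2.60% nuclear UMIs, and the 1486 of batch 2 had 0.712% and 0.165%. Only 10 members, all mitochondrial, had enough UMIs to be tested, and 9 of them were higher in batch 1, where 29.9% of the 1347 genes tested were. mt-Nd6 was not called here either, but lay near the threshold (log2 difference 0.57, SE 0.255, unadjusted p = 0.0305, edgeR adjusted p = 0.0524). The 111 T-like cells of batch 1 had 2.61% and 2.30%, and the 1224 of batch 2 had 0.628% and 0.185%. All 9 members tested, again mitochondrial, were higher in batch 1, where 19.7% of the 907 genes tested were. Without TMM factors the median over all genes fell to -0.92 in myeloid-like and -0.56 in T-like cells, and the mitochondrial medians went from 3.30 to 2.41 and from 3.05 to 2.53. Under that scaling the calls over all genes went from 403 higher and 368 lower to 235 and 907 in myeloid-like cells, and from 179 and 109 to 114 and 363 in T-like cells. RNA of tumor cells was also present in these classes. The summed tumor genes Pvt1, Fmnl2 and Cdh13 stood at 22.7% of their level in tumor clusters in the myeloid-like cluster of batch 2 and at 8.38% and 21.6% in its T-like clusters, against 2.47% to 6.49% and 3.71% in batch 1. Its part in the member values was not tested.

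In batch 2 the ratio of mitochondrial to nuclear UMIs was 2.35 in tumor- or mesenchyme-like cells, 3.13 in 428 epithelial-like, 3.40 in T-like, 3.76 in 181 endothelial-like and 4.33 in myeloid-like cells. In batch 1 it was 1.497 in tumor- or mesenchyme-like, 1.26 in myeloid-like, 1.13 in T-like and 1.28 in 58 dendritic-like cells, with 2.80 in 67 B-like cells. The order of classes was thus not the same in both batches. Clusters were named B-like and dendritic-like in batch 1 alone and epithelial-like and endothelial-like in batch 2 alone, but clusters of 312 and 166 batch 2 cells with B and dendritic markers stayed unnamed for their tumor RNA. At a clustering resolution of 0.5 a cluster of 224 cells in batch 1 was endothelial-like and 1 of 481 cells in batch 2 dendritic-like. Summed tumor genes stood at 49.6% of the level of tumor cells in the endothelial-like cluster and at 44.7% and 20.1% in the 2 epithelial-like clusters, and their part in these ratios was not tested. With cells of such different depth, these levels are given as a description.

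Tissue-restricted isoforms were rare, and the UMIs of Ndufa4l2 and Cox6a2 were concentrated in few cells of batch 1. Ndufa4l2, known as a hypoxia-linked relative of Ndufa4, had 87 UMIs in all, 79 of them in batch 1. Of these 79, 61 (77.2%) fell in an unnamed cluster of 24 cells led by Col1a1, Col1a2 and Col3a1 that held markers of both fibroblasts and pericytes, where it was at 387 CPM over the whole cluster, with UMIs in 13 of the 24 cells. The same cluster held 21 of the 51 batch 1 UMIs of Cox4i2 (41.2%), the lung and hypoxia isoform of Cox4. In batch 2, Cox4i2 was at 0.161 to 1.87 CPM per library. It was at 47.1 CPM there, from 8 UMIs, in an unnamed cluster of 272 cells with markers of pericytes and fibroblasts. In the tumor- or mesenchyme-like cells of batch 2 it was at 1.15 CPM.

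Cox6a2, the heart and muscle isoform of Cox6a, had 32 UMIs, all in batch 1, and 19 of them (59.4%) came from 3 of the 58 dendritic-like cells. Its 0 UMIs in batch 2 allow up to 0.0548 CPM. Cox7a1, the muscle isoform of Cox7a, had 83 UMIs and was at 21.1 CPM in myeloid-like cells of batch 1 against 2.68 in tumor- or mesenchyme-like cells. Cox7b2 went the other way, with 1 UMI in batch 1 and 67 in batch 2. Cox6b2 and Cox8c had 5 and 3 UMIs, and Cox8b had none, which allows up to 0.0436 CPM. These limits cover counting error only.

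The comparison of genotypes asked whether loss of endothelial AGO1 went with a change in respiratory transcripts of the tumor. No member was called, and neither was any other gene. Over all cells edgeR's quasi-likelihood test, with batch as a covariate, called 0% of 12459 genes at an adjusted p under 0.05, and DESeq2 called 2 genes, none of them a member. At an unadjusted p under 0.05 there were 1133 genes (9.09%) and 0 of the 97 members.

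The summed shares overlapped between genotypes. Within batch 2 the mean mitochondrial share of the WT libraries was 0.526% ± 0.220 (SD, n = 4) and that of the KO libraries 0.589% ± 0.0997 (SD, n = 4). Over both batches, with batch as a term, the difference (KO minus WT) was 0.0428 percentage points, and without WT 4 it became -0.0406. The nuclear share was 0.218% ± 0.0150 in WT and 0.246% ± 0.0095 in KO. Of the 4 KO libraries 3 lay above every WT library, and KO 4 at 0.232% lay below WT 5 at 0.238%. In batch 1 the nuclear share was instead lower in KO, at 1.99% against 2.05%.

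**Figure D5:**
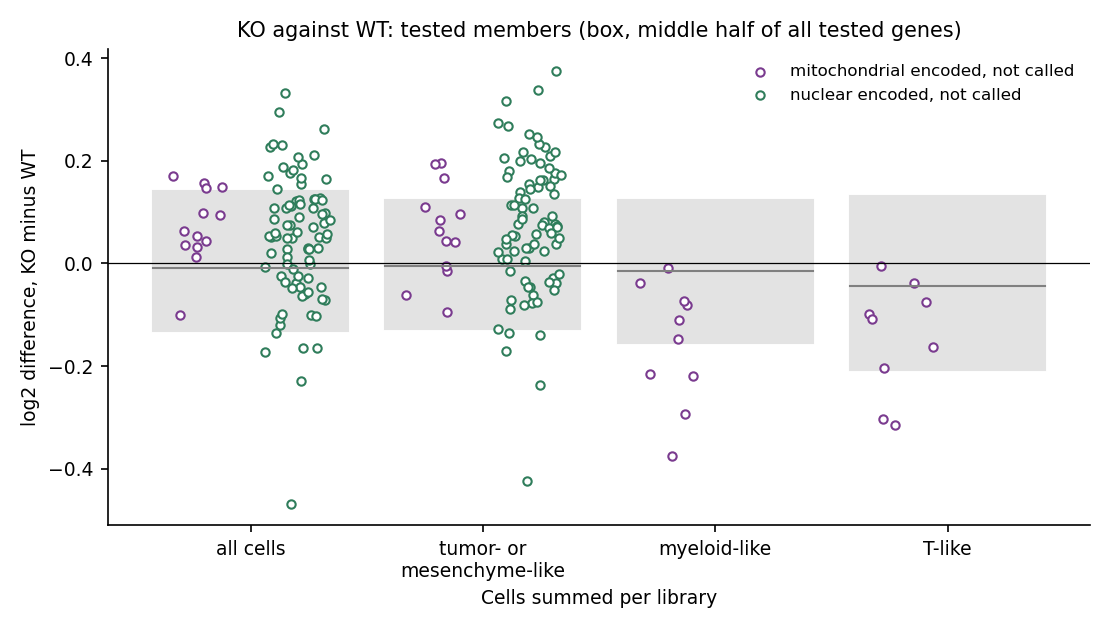
Log2 difference between genotypes (KO minus WT, edgeR with batch as a covariate) for each tested respiratory chain gene in all cells and in 3 cell classes, 1 open point per gene, with grey boxes and lines for the interquartile range and median of all tested genes. The points lie between -0.47 and 0.38, none was called, and the 10 and 9 members tested in myeloid-like and T-like cells, all mitochondrial, lie below 0.

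Over all cells 68 of 97 members had a log2 difference (KO minus WT) above 0, where 48.2% of all tested genes did, with medians of 0.06 for mitochondrial, 0.05 for nuclear members and -0.01 for all genes. The number above 0 was 41 without the batch term, 85 without TMM factors and 49 without WT 1. The direction thus depended on the model and on the libraries kept. The mitochondrial median was -0.03 without WT 4, and the nuclear median was -0.006 without WT 1. By complex, the median was 0.05 over nuclear complex I subunits, 0.02 over complex II, 0.04 over nuclear complex III, 0.06 over nuclear complex IV and 0.10 over nuclear complex V.

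The members with the smallest unadjusted p over all cells were Atp5s and Ndufa6. Atp5s was at 5.76, 3.52, 3.85 and 2.79 CPM in the batch 2 WT libraries, 4.46, 2.41, 2.80 and 3.33 in the KO libraries, and 30.8 (WT) and 19.6 (KO) in batch 1. The genotypes overlapped in batch 2, and the log2 difference was -0.47 (SE 0.225, unadjusted p = 0.0541, edgeR adjusted p = 0.554). Ndufa6, an accessory subunit of complex I, was at 7.85, 9.29, 6.51 and 11.2 CPM in the batch 2 WT libraries and 16.4, 11.9, 10.6 and 13.3 in the KO libraries, and at 178 (WT) and 171 (KO) in batch 1. Its log2 difference was 0.33 (SE 0.171, unadjusted p = 0.0709, edgeR adjusted p = 0.584).

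In batch 2 alone, 6 of the 99 members with at least 100 UMIs had all 4 KO libraries above all 4 WT libraries, where 4.43% of all such genes did, and 0 had all 4 below (0.31%). The 6 were Ndufa8, Ndufa13, Ndufb2 and Ndufb4 of complex I, Uqcr11 of complex III and Atp5j2 of complex V, and none was mitochondrial. Ndufa8 was at 12.6, 12.97, 12.4 and 13.3 CPM in WT and 20.4, 19.96, 16.0 and 14.3 in KO, and at 108 and 105 in batch 1. Uqcr11 was at 8.89, 13.6, 12.1 and 12.9 CPM in WT and 21.0, 17.5, 14.8 and 15.4 in KO, and at 200 and 188 in batch 1. For both, the batch 1 pair had the KO library slightly lower. These overlaps were read from CPM without TMM. With TMM factors Ndufa8, Ndufa13, Ndufb2, Ndufb4 and Atp5j2 overlapped between genotypes in batch 2. Ndufa8 was then at 13.8 in KO 5+6 and 14.0 in WT 4. Uqcr11 still did not overlap, at 14.01 in KO 4 and 13.92 in WT 3.

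In tumor- or mesenchyme-like cells 0% of 11483 genes were called (DESeq2 called 2, none a member). At an unadjusted p under 0.05 there were 639 genes (5.56%) and 1 of 97 members, Atp5f1, a stator subunit of ATP synthase, with a log2 difference of 0.27 (SE 0.124, unadjusted p = 0.0416, edgeR adjusted p = 0.870). Ndufa8 followed at 0.32 (SE 0.154, unadjusted p = 0.0566). Of the members 72 of 97 had a difference above 0, where 49.1% of all genes did. That number was 46 without the batch term and 54 without WT 1. Leaving out WT 1 took the nuclear median from 0.075 to 0.021.

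In myeloid-like cells 0% of 1347 genes and in T-like cells 0% of 907 were called, and DESeq2 called 0 in both. At an unadjusted p under 0.05 there were 57 (4.23%) and 35 genes (3.86%), with none of the 10 and 9 members among them. The mitochondrial members leaned to the other side, with 0 of 10 above 0 in myeloid-like cells (46.8% of all genes) and 0 of 9 in T-like cells (43.8%). This changed with the model in T-like cells, to 2 of 9 without TMM factors, and with the libraries kept, to 4 of 9 without WT 5. In myeloid-like cells 2 of 10 were above 0 without WT 5. Without WT 3 it was 4 of 11 tested members (10 mitochondrial) there. In myeloid-like cells without the 2 pooled KO libraries, 5 of 14 tested members were above 0. Of these 14 only 11 were mitochondrial, and the mitochondrial median was -0.096. mt-Cytb had log2 differences of -0.38 in myeloid-like cells (SE 0.191, unadjusted p = 0.0568, edgeR adjusted p = 0.972) and -0.32 in T-like cells (SE 0.251, unadjusted p = 0.219), and mt-Nd1 of -0.29 and -0.30.

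Endothelial-like cells, in which the Cre acts, were too few for a test across genes. In the 3 WT libraries of batch 2 with at least 10 of them the mitochondrial share was 0.652%, 0.809% and 0.772%, and in the 4 KO libraries 0.637%, 0.643%, 0.703% and 0.602%. The WT values lay above 3 of the 4 KO values, and KO 4 at 0.703% lay between WT libraries. WT 4, which had the lowest mitochondrial share over all cells, held only 7 of these cells and was left out. All 181 endothelial-like cells together held only 658 mitochondrial member UMIs, so counting error in these shares is large. Each library held only 17 to 34 nuclear member UMIs in this class, and tumor genes stood in it at 49.6% of their level in tumor cells, a part in these shares that was not tested.

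A batch by genotype term, added after the data had been seen, called 0 genes by edgeR in any of the 4 sets. At an unadjusted p under 0.05 it gave 226 genes over all cells, 155 in tumor- or mesenchyme-like, 27 in myeloid-like and 41 in T-like cells, among them 1 member, mt-Nd6 in myeloid-like cells (unadjusted p = 0.022, edgeR adjusted p = 0.998). DESeq2 was not run on this term. Batch 1 held 1 library per genotype, so this term rested on a single pair.

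Genes of the same organelle outside the rule were read from lists, beside 39.4% of all 12459 genes called higher in batch 1 and 37% called lower. Of the 77 mitochondrial ribosome genes tested over all cells, 74 were higher in batch 1 and 0 lower by edgeR (75 had an unadjusted p under 0.05), with a median log2 difference of 2.56. Of 28 genes for the electron carrier cytochrome c and for assembly of complexes II to V, 19 were higher and 3 lower (median 1.52). Cytochrome c itself, Cycs, was at a mean of 178 CPM in batch 1 and 30.5 in batch 2 (log2 difference 2.55). Coa3, a complex IV assembly factor, had the larger step of 5.44, while Uqcc1, a complex III assembly factor, was lower at -1.49.

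The citric acid cycle and pyruvate dehydrogenase list gave 9 higher and 2 lower of 17 (median 0.96), with Cs, citrate synthase, at 0.96 and Ogdh, a subunit of the 2-oxoglutarate dehydrogenase, at -0.65. Genes that copy and process mitochondrial DNA and RNA gave 12 higher and 4 lower of 25 (median 0.36). Tfam, which packages mitochondrial DNA and starts its transcription, was not called at 0.19 (SE 0.150, edgeR adjusted p = 0.261), and Polrmt, the mitochondrial RNA polymerase, was lower at -1.29. Of 8 nuclear regulators tested, 2 were higher and 4 lower (median -0.45), where 39.4% and 37% of all genes were. Nrf1, whose motif is shown above, was lower in batch 1 at -1.29, and Gabpa, a subunit of another factor known for respiratory promoters, at -0.59. Over all tested genes longer than 20 kb the median was -0.51, and the part of gene span in the list values was not tested. None of these lists had a gene called between genotypes by edgeR. At an unadjusted p under 0.05 there were 0 of 77, 1 of 28, 1 of 17, 0 of 25 and 1 of 8 genes in the order given here, the last being Nrf1 at -0.21 (SE 0.0955, unadjusted p = 0.0423).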

How the data were processed

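Single-cell RNA was measured in 10 tumor libraries. The authors deposited raw UMI counts of 31053 genes in every barcode, not filtered for cells, and per the labels these came from Cell Ranger 7.1.0 and mm10. The later integration, clustering and annotation of the study were not used here.

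A barcode counted as a cell with 200 to 7000 genes and no more than 10% mitochondrial UMIs. Each batch was clustered on its own by the Leiden method in scanpy 1.11.5 (Python 3.11.15, resolution 1) and clusters that held markers of non-tumor classes were clustered again, because a joint clustering, as first planned, divided by batch. Names needed 3 markers of a class. Naming limits were set after clusters had been seen and before genotypes were compared. Doublets were not removed. Counts were summed per library and class, leaving out libraries with fewer than 10 cells, and tested in edgeR 4.0.16 (R 4.3.3, quasi-likelihood, TMM, filterByExpr, genotype and batch as terms, Benjamini-Hochberg). The test was also run on simulated data with planted differences larger than any genotype difference of a member here. That run therefore cannot show whether differences as small as these would be called. Libraries of different tumors served as replicates, with pooled tumors as 1 sample. CPM are UMIs per 1000000 UMIs in cells, without TMM. Summed shares, ratios and correlations across genes got no test.

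Named genes were all mitochondrial members, the 3 most abundant nuclear subunits per complex, the restricted isoforms, the 2 members with the smallest p in each KO comparison and the largest called batch differences. Others were named after their values were seen: Atp5j2, Ndufb2, Uqcr11, Ndufa13 and Ndufb4, the first Atp5o locus, Ndufs3 and Ndufaf2, and the genes of the pathway lists. The members and lists were chosen with earlier results of these data known. Alternatives covered DESeq2 1.42.0, the filter, scaling, cell limits, clustering, batch term, pooled libraries, the replicate number as a block and each library left out.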

Additional observations from a re-analysis of the deposited data

Results flagged for a closer look

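Within groups of 4 libraries of batch 2, a value far from the other 3 was looked for in 96 groups by Dixon's rule, which chance passes in about 1 in 20, and 6 were found. WT 4 stood apart in 3 of them. Its log2 ratio of mitochondrial to nuclear UMIs was 0.05839 over all cells, where the other WT libraries had 1.372 to 1.574, and 0.0218 in tumor- or mesenchyme-like cells, where they had 1.35 to 1.547. Its mt-Co1 level was 351.6 CPM against 1486 to 1534.

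The other 3 were single values. KO 4 had a nuclear share of 0.2316%, below the 0.2491% to 0.2523% of the other KO libraries, mt-Nd3 of KO 1 was at 45.08 CPM against 64.31 to 67.61, and Uqcrq of WT 3 was at 39.56 CPM against 27.21 to 29.3 in the other WT libraries. Over both batches, the batch 1 library was the extreme one in 40 of 48 measures in WT and in 39 of 48 in KO.

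Barcodes with at most 50 UMIs, which entered no comparison of genotypes, held more mitochondrial RNA than cells in every library. Their mitochondrial share was 14.8% in WT batch 1 and 12.9% in KO batch 1, 1.31%, 3.26%, 0.635% and 1.27% in WT 1, WT 3, WT 4 and WT 5, and 1.19%, 1.33%, 2.76% and 1.27% in KO 1, KO 2+3, KO 4 and KO 5+6. In cells it was between 0.213% and 2.91%.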

How the results depend on the processing

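No member was called between genotypes in any of the 4 cell sets under any alternative run, and no named member changed the direction of a called difference. Of 450 recomputed counts and summed shares 422 stayed close to the reported value and 28 moved, and of 3326 recomputed differences of the members named by rule 3322 kept their call. The 4 others were mt-Nd6 between batches in myeloid-like cells, which was then called. Ndufaf2, named after its values were seen, was called lower between batches over all cells by DESeq2 (log2 difference -0.29, adjusted p = 0.0414).

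Genes called between genotypes went from 0 to 2 over all cells and 2 in tumor- or mesenchyme-like cells with DESeq2, and without a filter on low counts to 241, 38 and 5 in all, tumor- or mesenchyme-like and myeloid-like cells. Batch 2 alone called 1 in myeloid-like cells. With 1 library left out the range was 0 to 1 over all cells (1 without KO 4), 0 to 1 in myeloid-like cells (1 without either batch 1 library) and 0 to 4 in T-like cells (4 without WT 3). Genes called between batches were 498 to 891 in myeloid-like and 141 to 369 in T-like cells with 1 library left out, the lowest without WT batch 1 (500 and 154 without KO batch 1), 5984 and 2325 without the filter, when 95 and 81 members were called, 94 and 80 of them higher in batch 1, and 477 in T-like cells with library size alone. Where a lone library was left in batch 1 it was assumed to vary like the others.

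The batch difference of the mitochondrial share was 2.34 percentage points and 2.58 without the mitochondrial limit, and that of the nuclear share 1.79, 1.89 as a median over cells and 1.74 to 1.84 with 1 library left out. With batch as a term, the nuclear difference between genotypes was 0.0083, and 0.0023 to 0.0276 with 1 library left out, highest without either batch 1 library. In batch 2 alone it was 0.0276. The genotype difference of the log2 ratio, 0.0935, ran from -0.187 without WT 4 to 0.204, also with batch as a term. For these moves the cause was not tested.

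With a replicate block over shared numbers 0 members and 0 genes were called in each of the 4 sets. The numbers were not taken to pair the samples, since the deviations of WT 1 and KO 1 correlated at -0.218 and those of WT 4 and KO 4 at -0.253, although those of WT 3 and KO 2+3 correlated at 0.19 and those of WT 5 and KO 5+6 at 0.187. Resolution 0.5 could not be used in T-like cells, because those of batch 2 then stayed unnamed. Scaling by library size alone, clustering by batch, the batch by genotype term and gene span were chosen after seeing the data. Depth limits the immune classes of batch 2, where no nuclear member could be tested, and the endothelial-like cells.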
